A study of Mus musculus with 21 samples.

Results

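The comparison described here pools all tumours by exposure to lenvatinib: 10 tumours from mice that received the drug, alone or with an antibody against PD-1, were set against 11 tumours from mice that did not, which together are all 21 tumours of the series. Membership was taken from the treatment labels and not from any measured value. Each tumour came from a different mouse and was profiled on 1 Clariom S mouse array. The difference reported for a gene is its mean log2 signal in treated minus free tumours, with the antibody balanced: it is the average of lenvatinib minus placebo (5 and 6 mice) and combination minus anti-PD1 (5 and 5 mice), which share no mice.

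All tumours grew from Hepa1-6, an established liver cancer line of the mouse, implanted subcutaneously in C57BL/6J females aged 5 to 6 weeks, so they lay outside the liver. Mice were randomized at a tumour volume of 200 mm3. Placebo mice received the drug vehicle with polyclonal IgG. Lenvatinib mice received 10 mg/kg of the drug by gavage every day, anti-PD1 mice received clone J43 at 10 mg/kg into the peritoneum every 3 days for 5 doses, and combination mice received both. The IgG and the vehicle are named in the labels for the placebo arm. Collection was on day 13, with 2 h since the final gavage of drug and 1 day since the final antibody injection, and 30 mg of each tumour was extracted.

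Lenvatinib is an oral inhibitor of several receptor tyrosine kinases: the VEGF receptors, the FGF receptors, PDGFRA, KIT and RET. VEGF receptors on endothelial cells drive sprouting and survival of vessels, pericytes wrap and stabilize those vessels, and FGF receptors signal through the MAP kinase pathway in tumour and stromal cells. The drug is used in hepatocellular carcinoma, also beside antibodies that release T cells from PD-1 inhibition. The pooled comparison asks what the drug did to tumour RNA across both antibody settings.

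The tumour pieces differed in the tissue they held, and this difference was uneven between the groups. Afp, the alpha-fetoprotein gene that marks Hepa1-6 cells, was 5.60 in placebo 1, 5.05 in placebo 6 and 3.75 in antiPD1 2, against at least 8.06 in every other tumour, and Alb (albumin) was 7.56, 7.65 and 8.41 in the same tumours. List scores are averages of a list's genes, each centred on its own mean across mice. The adipocyte score exceeded 1.5 in 6 tumours (placebo 1, 4 and 6 and antiPD1 1, 2 and 4, the lowest at 1.66), while the highest treated tumour stood at 0.83. All 6 adipocyte-rich tumours and all 3 Afp-poor tumours were thus free of lenvatinib. Skeletal muscle genes were high in 5 tumours (3 free, 2 treated), and 6 arrays (3 treated, 3 free) had bright hybridization controls. Combination 4, a treated tumour, had the highest B cell (2.60), T cell (1.82) and MHC class II (1.36) scores of all tumours. Its lymphatic endothelial (1.26) and dendritic cell (1.22) scores were also the highest. Results below are given over all 21 tumours and, where the value moved, over the 15 that are left without the adipocyte-rich ones (10 treated, 5 free), a choice made after the data were seen. The 5 free ones are placebo 2, 3 and 5 and antiPD1 3 and 5. The antibody part of the smaller comparison, which counts as much as the other part, thus rests on antiPD1 3 and 5 on its free side. In bulk tissue, fewer cells of a type and less RNA per cell cannot be told apart.

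**Figure D1:**
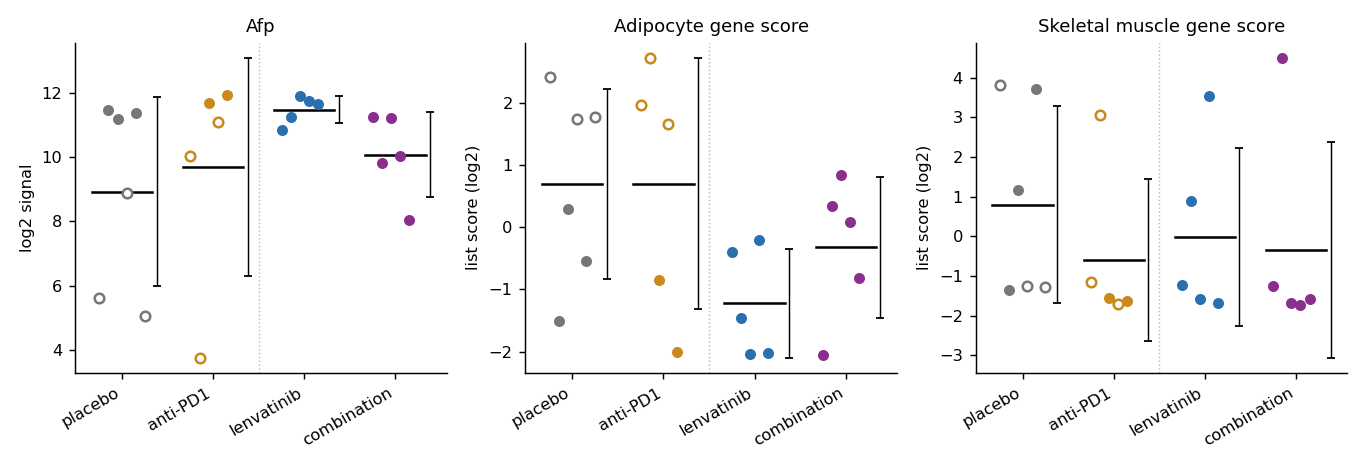
Afp signal (log2, left), adipocyte list score (middle) and skeletal muscle list score (right) in each tumour by arm; open points are the 6 adipocyte-rich tumours, bars are arm means and whiskers 1 SD. The open points lie only in the lenvatinib-free arms, left of the dotted line, and 3 of them have Afp below 7.

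Across 22206 probe sets, 0 were higher and 0 lower with lenvatinib at an adjusted p under 0.05 (limma with Benjamini-Hochberg adjustment, called share 0%), and the smallest adjusted p was 0.829. At an unadjusted p under 0.05, 407 probe sets were higher (1.83%) and 901 lower (4.06%). Differences below 0 made up 48.7% of all probe sets, and the median difference was 0.01. In no probe set did all 10 treated tumours lie on 1 side of all 11 free ones. Without the adipocyte-rich tumours the counts at that level were similar, 366 higher (1.65%) and 913 lower (4.11%), but mostly of other probe sets. Of the 901 lower ones, 672 were still below 0 and 90 still passed that level; of the 407 higher ones, 374 were still above 0 and 70 still passed. The smaller comparison also gave 0 adjusted calls (smallest adjusted p 0.863). The excess of lower probe sets was not kept in every alternative. Without the arrays with bright hybridization controls, 769 were higher (3.46%) and 569 lower (2.56%) at the unadjusted level. With muscle and adipocyte scores as covariates, 408 were higher (1.84%) and 434 lower (1.95%).

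The 2 component comparisons mostly did not point the same way. The sign matched in 46.0% of probe sets, and the differences had a Pearson r of -0.09 and a Spearman rho of -0.11 across probe sets, which are not independent replicates. Neither component gave a call: lenvatinib against placebo had 0 (smallest adjusted p 0.693, with 649 higher and 899 lower at an unadjusted p under 0.05), and combination against anti-PD1 had 0 (0.124, with 1078 and 619). Below that unadjusted level in both, 46 probe sets were lower in both comparisons and 0 were higher in both, while 81 were lower without and higher with the antibody and 35 the reverse. The 46 include Mcam, Tm4sf1, Sbspon, Plet1, Nos3 and Wfdc2, which are described next.

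The genes with the smallest p among the lower ones include 3 of vascular cells. Tm4sf1 encodes a tetraspanin-like membrane protein abundant in endothelial cells and in many tumour cells. Its log2 signal ran from 7.998 to 9.35 in treated tumours (median 8.91) and from 9.23 to 10.56 in free tumours (median 9.75), and 8 of 10 treated tumours lay below every free one. The difference was -0.97 ± 0.20 (standard error), a ratio of 0.51, with an unadjusted p of 7.57e-05 and an adjusted p of 0.829. It was -0.96 without and -0.98 with the antibody. Over the 15 tumours it was -0.71 ± 0.21, and 9 of 10 treated tumours lay below all 5 remaining free ones. The groups thus overlapped by a few tumours only, and Tm4sf1 had the highest such count of the named genes in the smaller set.

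Mcam encodes CD146, an adhesion molecule of endothelial cells and pericytes. Treated tumours ranged from 4.89 to 6.69 (median 5.96) and free tumours from 6.03 to 8.56 (median 7.24), so that every treated tumour lay below the free median and 6 below the lowest free tumour. The difference was -1.23 ± 0.25 (unadjusted p = 6.46e-05), and it shrank to -0.65 ± 0.25 without the adipocyte-rich tumours, which held the 6 highest values. Nos3, the endothelial nitric oxide synthase, ranged from 4.11 to 4.83 in treated and from 4.53 to 5.87 in free tumours. Its difference was -0.72 ± 0.17 over all tumours and -0.34 ± 0.15 in the smaller comparison. Nos3 signals lie near the median of the negative-control probes, 4.08, which limits how much lower a treated tumour could read.

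**Figure D2:**
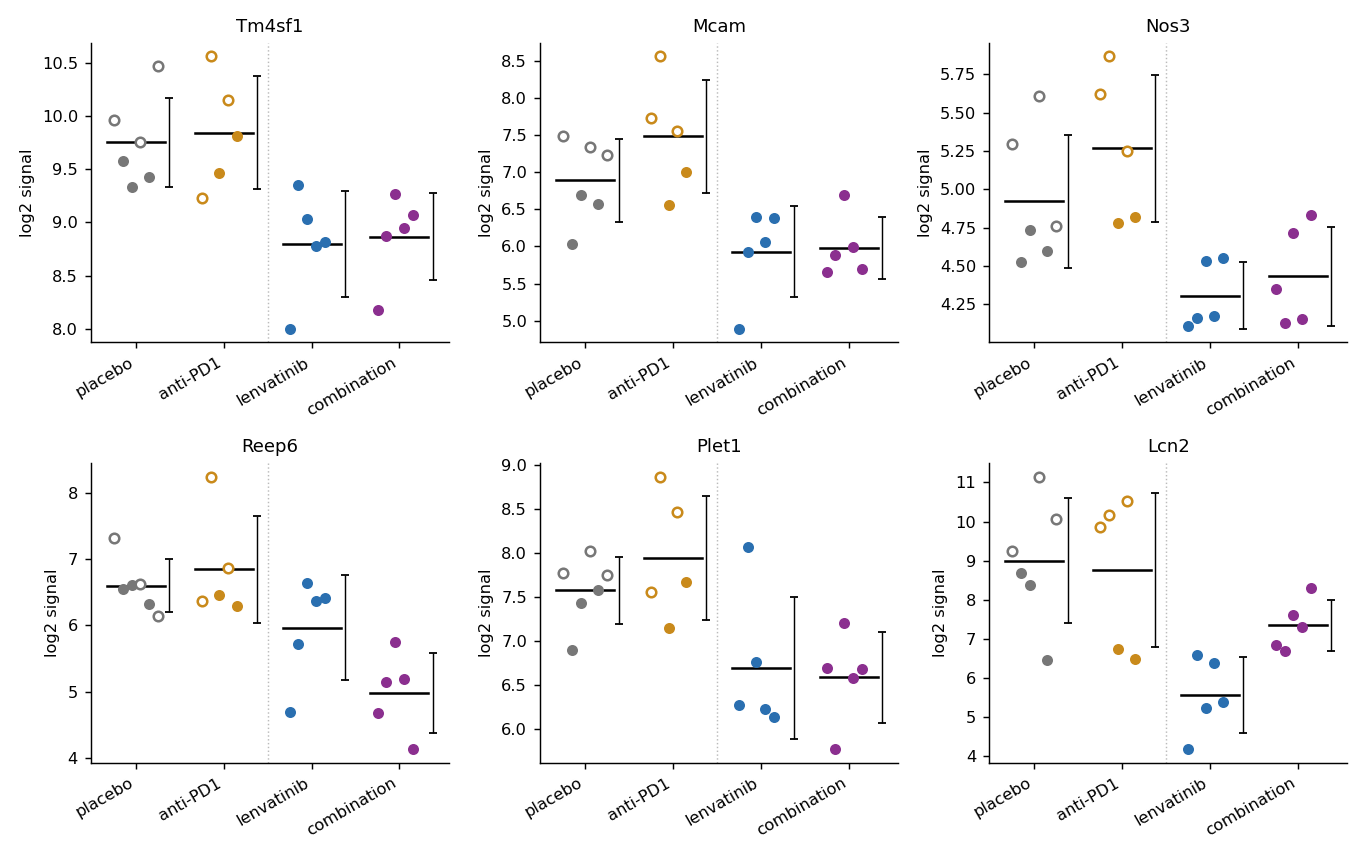
Log2 signal of 6 of the 8 genes with the smallest p among those lower with lenvatinib, in each tumour by arm; open points are adipocyte-rich tumours, bars are arm means and whiskers 1 SD. For Tm4sf1, 8 of 10 treated tumours lie below every free tumour, whereas the open points supply the highest Mcam and Lcn2 values.

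The other lower genes of this rank are mostly secreted or epithelial. Plet1, a surface protein of epithelial progenitors, ranged from 5.77 to 8.06 in treated and from 6.90 to 8.87 in free tumours, with 8 of 10 treated tumours below every free one and lenvatinib 2 well inside the free range. Its difference was -1.12 ± 0.25, and -0.72 ± 0.30 without the adipocyte-rich tumours. Reep6, an endoplasmic reticulum membrane protein, differed by -1.25 ± 0.27, and by -0.97 ± 0.30 in the smaller comparison. The size of the Reep6 difference was uneven between antibody settings, at -0.63 ± 0.37 without and -1.87 ± 0.39 with the antibody; all 5 combination tumours lay below every anti-PD1 tumour. The test of that difference gave an unadjusted p of 0.033 and an adjusted p of 0.49.

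Sbspon, a secreted protein with a thrombospondin repeat, ranged from 3.71 to 4.21 in treated and from 4.10 to 5.04 in free tumours (difference -0.56 ± 0.12, and -0.37 ± 0.14 without the adipocyte-rich tumours). Its values sit at the level of the negative controls in the treated group. Wfdc2, a whey acidic protein family member secreted by epithelia, differed by -0.97 ± 0.23, and by -0.32 ± 0.15 in the smaller comparison. Lcn2 encodes a siderophore-binding lipocalin made by neutrophils, inflamed epithelia and fat. It had the widest difference of these 8 genes, -2.43 ± 0.56, with treated tumours from 4.17 to 8.30 (median 6.63) and free tumours from 6.45 to 11.15 (median 9.24). The 6 adipocyte-rich tumours all stood above the highest treated value of Lcn2, and without them the difference was -0.78 ± 0.43.

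The 8 genes with the smallest p on the higher side had larger p than the 8 lower ones. Ly96 encodes MD-2, the partner of TLR4 in sensing lipopolysaccharide. It ranged from 5.68 to 7.32 in treated (median 6.12) and from 4.20 to 6.13 in free tumours (median 5.41), all 10 treated tumours standing above the free median. The difference was 0.76 ± 0.21 (unadjusted p = 0.00145, adjusted p = 0.829), with 0.29 ± 0.29 without and 1.23 ± 0.30 with the antibody. Car6, a secreted carbonic anhydrase, differed by only 0.45 ± 0.12 but placed 8 of 10 treated tumours above every free one, in all 21 tumours and in the 15.

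Camk4, a calcium-dependent kinase prominent in T cells, differed by 0.54 ± 0.15. This lay in the antibody-treated arms, with differences of 0.01 ± 0.21 without and 1.06 ± 0.22 with the antibody. Pzp, a protease inhibitor of the alpha-2-macroglobulin family, showed the opposite layout, at 1.21 ± 0.25 without and 0.06 ± 0.27 with the antibody. Placebo values of Pzp ran from 3.21 to 4.04, below the negative-control median of 4.08, so its difference without the antibody starts from background level. The test of the difference between settings gave an adjusted p of 0.21 for Camk4 and 0.27 for Pzp. Tmem71 (0.66 ± 0.17), Rhof, a small GTPase (0.69 ± 0.20), S1pr3, a sphingosine-1-phosphate receptor (0.57 ± 0.17), and Sp110, an interferon-induced nuclear body protein (0.82 ± 0.25), complete the set. Over the 15 tumours, Camk4 stood at 0.70, Rhof at 0.69, Ly96 at 0.58 and Tmem71 at 0.43, whereas S1pr3 and Sp110 stood at 0.25 and 0.22.

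Among the kinases that lenvatinib inhibits, 9 of 10 receptor genes were measured, and Pdgfra is unnamed here. None passed the test, and 5 of 9 lay below 0 (median -0.23). Fgfr2 differed by -0.89 ± 0.40 and Fgfr1 by -0.54 ± 0.25, both below an unadjusted p of 0.05, as were 4.06% of all probe sets on the lower side. The highest free Fgfr2 value was 8.78 and the highest treated value 6.29, and the difference turned to 0.17 ± 0.20 without the adipocyte-rich tumours; Fgfr1 stood at -0.18 ± 0.27 there. Kdr, the main VEGF receptor of endothelium, differed by -0.62 ± 0.44, and by 0.21 ± 0.45 in the smaller set. Flt1 (0.19 ± 0.29) and Flt4 (0.14 ± 0.21), the other VEGF receptors, and Fgfr4 (0.56 ± 0.47), the FGF receptor of hepatocytes, also turned sign there, to -0.15, -0.40 and -0.75. Kit (-0.75 ± 0.59), Fgfr3 (-0.23 ± 0.13) and Ret (0.22 ± 0.11) kept theirs, at -0.51, -0.18 and 0.25. RNA level of a receptor is not a measure of its inhibition.

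Of the ligands and coreceptors of those receptors, 21 were measured, 15 lay below 0 and 1 had an unadjusted p under 0.05, against 4.06% of all probe sets. That gene was Fgf10, a ligand of FGFR2 made by mesenchymal and fat-associated cells. It ranged from 3.06 to 5.28 in treated and from 3.65 to 7.52 in free tumours, with a difference of -1.48 ± 0.49 that became 0.06 ± 0.27 without the adipocyte-rich tumours, all 6 of which exceeded the highest treated tumour.

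Most pericyte and endothelial genes lay below 0 over all 21 tumours, and the 2 lists were not tested against each other. Of 15 pericyte and vascular smooth muscle genes, 13 lay below 0 and 7 had an unadjusted p under 0.05 in that direction, against 4.06% of all probe sets. Their median was -0.34, and 13 lay below 0 in each component comparison (medians -0.31 and -0.40). Cnn1, the smooth muscle calponin, ranged from 4.40 to 6.98 in treated and from 4.58 to 9.38 in free tumours, a difference of -1.53 ± 0.52. Tagln, or transgelin, another actin-binding protein of smooth muscle, differed by -0.58 ± 0.23. Without the adipocyte-rich tumours these stood at -0.06 ± 0.37 and -0.10 ± 0.17, the list median at -0.18, with 11 of 15 below 0 and 1 gene, Mcam, with an unadjusted p under 0.05.

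Of 21 endothelial identity genes, 16 lay below 0 (median -0.17, and -0.10 without antiPD1 2). Of the 21, 2 had an unadjusted p under 0.05, against 4.06% of all probe sets. Cldn5, the tight junction claudin of endothelium, ranged from 3.55 to 7.64 in treated and from 5.40 to 8.99 in free tumours, and differed by -1.34 ± 0.51. Tek, the angiopoietin receptor TIE2, differed by -0.82 ± 0.44 and exceeded the negative-control median in only 12 of 21 arrays. Without the adipocyte-rich tumours the endothelial median was 0.04, Cldn5 stood at -0.50 ± 0.57 and Tek at 0.17 ± 0.35. The 18 tip cell and VEGF-dependent genes had 11 below 0 (median -0.04), with Lama4 and Nid2, both basement membrane components, at -0.82 ± 0.28 and -0.62 ± 0.21. In the smaller set 14 of the 18 lay below 0 (median -0.18), with Lama4 at -0.16 ± 0.24 and Nid2 at -0.21 ± 0.23. Leaving out the adipocyte-rich tumours thus brought the endothelial median to just above 0 but moved the tip cell median further below it. The part of those tumours in the vessel lists was not tested beyond the values given.

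The MAP kinase output and hypoxia lists turned direction with the tumours counted. The 18 feedback and ETS-family genes downstream of MAP kinase had 14 above 0 over all 21 tumours (median 0.13). Of the 18, 2 were higher at an unadjusted p under 0.05, against 1.83% of all probe sets. Spred1, an inhibitor of RAS signalling, stood at 0.40 ± 0.15, and Dusp5, a nuclear ERK phosphatase, at 0.56 ± 0.26. Over the 15 tumours, 14 of the 18 lay below 0 (median -0.33). Of the 18, 6 had an unadjusted p under 0.05 on the lower side, against 4.11% of all probe sets. Spred1 stood at 0.22, Dusp5 at -0.16 and Etv4, an ETS factor used as a readout of FGF signalling, at -0.55 ± 0.29 after 0.51 ± 0.38. MAP kinase scores were 0.12, 0.18 and 0.31 in placebo 2, 3 and 5, against a lenvatinib arm mean of 0.30. They were 0.56 and 0.87 in antiPD1 3 and 5, against a combination arm mean of -0.06. The 22 hypoxia and glycolysis genes went from 17 above 0 (median 0.20) to 17 below 0 (median -0.22). Pgk1, a glycolytic kinase, stood at 0.56 ± 0.25 and then 0.07, and Ero1a, an oxidase of the endoplasmic reticulum, at 0.72 ± 0.30 and then -0.07.

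Proliferation genes reversed in the same way. All 19 mitosis genes lay above 0 over the 21 tumours (median 0.43) with 0 at an unadjusted p under 0.05, and all 19 lay below 0 without the adipocyte-rich tumours (median -0.66), 10 of them with an unadjusted p under 0.05, against 4.11% of all probe sets. Mitosis scores of the free tumours left were 0.76, 0.13 and 0.69 in placebo 2, 3 and 5, and 1.02 and 1.39 in antiPD1 3 and 5. Arm means were 0.65 for lenvatinib, within the range of those placebo scores, and -0.17 for combination. The negative difference thus lay in the antibody-treated arms, with only antiPD1 3 and 5 on its free side. Without antiPD1 2 alone the mitosis median was 0.22. Mki67, the Ki-67 proliferation antigen, ranged from 7.36 to 9.90 in treated tumours and from 5.76 to 9.99 in free tumours. The free tumours fell apart into low and high values, and 5 of the 6 adipocyte-rich ones lay below every treated tumour. Its difference was 0.82 ± 0.55 over all and -0.72 ± 0.32 over the 15. The 17 DNA replication genes had 16 above 0 (median 0.38) and then 15 below 0 (median -0.43), with Rrm2, a ribonucleotide reductase subunit, at 0.56 ± 0.20 and 0.29 ± 0.19, and Mcm5, a replicative helicase subunit, at 0.68 ± 0.29 and -0.16 ± 0.19.

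**Figure D3:**
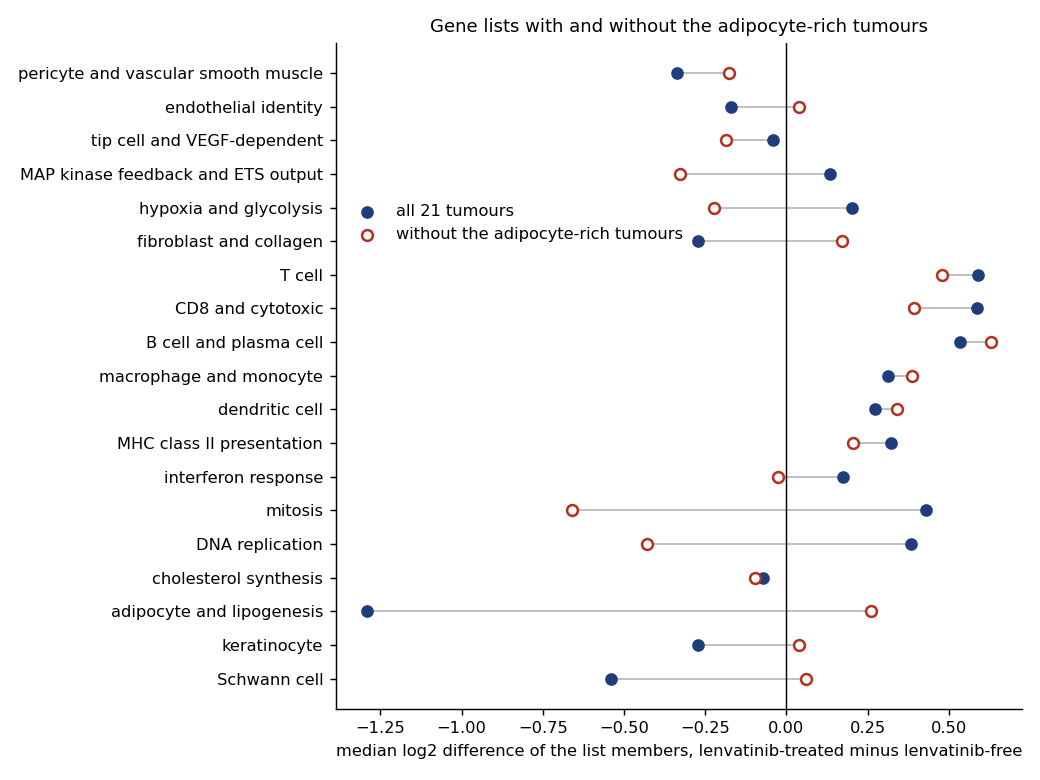
Median log2 difference, treated minus free, of the measured members of 19 gene lists over all 21 tumours (filled) and over the 15 left without the adipocyte-rich ones (open). Mitosis goes from 0.43 to -0.66 and the adipocyte list from -1.29 to 0.26, while the T cell, CD8, B cell and macrophage lists stay above 0.

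The medians of the T cell, CD8, B cell, macrophage, dendritic cell and MHC class II lists lay above 0 with lenvatinib in both sets of tumours, with fewer genes below an unadjusted p of 0.05 in the smaller set. Of 12 T cell genes, all lay above 0 and 5 had an unadjusted p under 0.05, against 1.83% of all probe sets (median 0.59). Over the 15 tumours all 12 lay above 0 (median 0.48), 2 of them below that p, against 1.65% of all probe sets. All 13 CD8 and cytotoxic genes lay above 0 in both sets (medians 0.59 and 0.39), with 5 and then 1 below that p. Cd8b1, the CD8 beta chain, ranged from 7.05 to 10.51 in treated and from 4.92 to 9.30 in free tumours, with a difference of 0.92 ± 0.37. Sit1, an adaptor of T cell receptor signalling, and Cd247, its zeta chain, differed by 0.80 ± 0.27 and 0.48 ± 0.17, and Cst7, the cystatin F of cytotoxic cells, by 0.84 ± 0.29.

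B cell and plasma cell genes had 11 of 14 above 0 and 3 below an unadjusted p of 0.05 (median 0.54), against 1.83% of all probe sets. In the smaller set 12 lay above 0 and 1 had such a p (median 0.63), against 1.65% of all probe sets. With only combination 4 left out, the median was 0.24. Cd79a, which signals for the B cell antigen receptor, differed by 1.16 ± 0.40, with a top value of 9.78 in combination 4 against at most 7.51 in any other tumour. Mzb1, a chaperone of antibody-secreting cells, differed by 1.07 ± 0.40. Of 18 macrophage and monocyte genes 16 lay above 0 (median 0.31, then 0.39, and 0.17 without lenvatinib 5), with Arg1, the arginase of suppressive myeloid cells, at 1.44 ± 0.64 but at 0.08 ± 0.37 without the adipocyte-rich tumours. Fcrls, an Fc receptor-like scavenger, was among the 2 below 0, at -0.58 ± 0.22 and then -0.17 ± 0.22. Dendritic cell genes had 10 of 12 above 0 (median 0.27, then 0.34, and 0.16 without combination 4). Xcr1, the chemokine receptor of cross-presenting cells, stood at 0.65 ± 0.23 and then 0.54 ± 0.30, and Irf8, their lineage factor, at 0.76 ± 0.25 and then 0.22 ± 0.20. All 9 MHC class II presentation genes lay above 0 (median 0.32, then 0.20 with 8 above 0, and 0.18 without lenvatinib 5), led by H2-Ob at 0.96 ± 0.40, which was 0.62 without combination 4.

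These higher immune medians lay in the antibody-treated arms. Median T cell differences were -0.47 without and 1.74 with the antibody, with 12 of 12 genes below 0 in the first and 12 of 12 higher at an unadjusted p under 0.05 in the second, against 4.85% of all probe sets. The T cell score was 0.94, 0.66, 1.82 and 1.23 in combination 2 to 5 and -0.48 in combination 1, while anti-PD1 tumours stood at -0.69, -1.66, -0.71, -0.09 and -0.80. Lenvatinib tumours stood at -0.55, -0.52, -0.65, -0.38 and 0.63, and placebo tumours between -0.21 and 0.70. The T cell score was therefore high in 4 of 5 combination tumours and below 0 in all 5 anti-PD1 tumours. AntiPD1 4, at -0.09, lay inside the placebo range, and its CD8 and macrophage scores were 0.22 and 0.44. Macrophage medians were -0.63 and 1.41 (4 of 18 lower without the antibody at an unadjusted p under 0.05, against 4.05%, and 14 of 18 higher with it), MHC class II medians -0.26 and 1.05, and CD8 medians -0.17 and 1.64.

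The test of whether the lenvatinib difference itself depended on the antibody called 0 probe sets (limma, smallest adjusted p 0.151), with 1266 positive (5.7%) and 736 negative at an unadjusted p under 0.05. T cell genes made up 12 of 12 on the positive side at that level, macrophage genes 14 of 18, CD8 genes 7 of 13 and MHC class II genes 7 of 9. Cd2, a T cell adhesion receptor, had an interaction of 2.35, Cd7, another T cell surface protein, of 2.69, Rac2, the GTPase of blood cells, of 2.60 and Clec12a, a myeloid lectin, of 4.78. On the negative side stood Plekha6 (-1.79), Wasf1, an actin regulator (-1.45), Yap1, the Hippo pathway coactivator (-1.61), and Lgr4, an R-spondin receptor (-1.50); each of the 8 had an adjusted p of 0.151. When arrays were weighted by their fit to the arm means, 1691 of 22206 probe sets passed for the interaction, 772 positive (3.48%) and 919 negative. Among the positive ones were all 12 T cell genes and 9 of 18 macrophage genes. Among the 919 of 22206 on the negative side were 6 of 19 mitosis genes. The same weighting called 504 probe sets for combination against anti-PD1, and 0 for the pooled difference (smallest adjusted p 0.244). Leaving out combination 1 gave 320 interaction calls, lenvatinib 5 gave 81 and antiPD1 4 gave 7. These were the combination tumour with the lowest T cell score and the lenvatinib and anti-PD1 tumours with the highest. The weights were drawn from the same values and ran from 0.18 to 3.63, with combination 1 at 0.37. Interaction calls appeared only with such weights or when any of these tumours was left out. They are thus not independent support for the pattern.

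**Figure D4:**
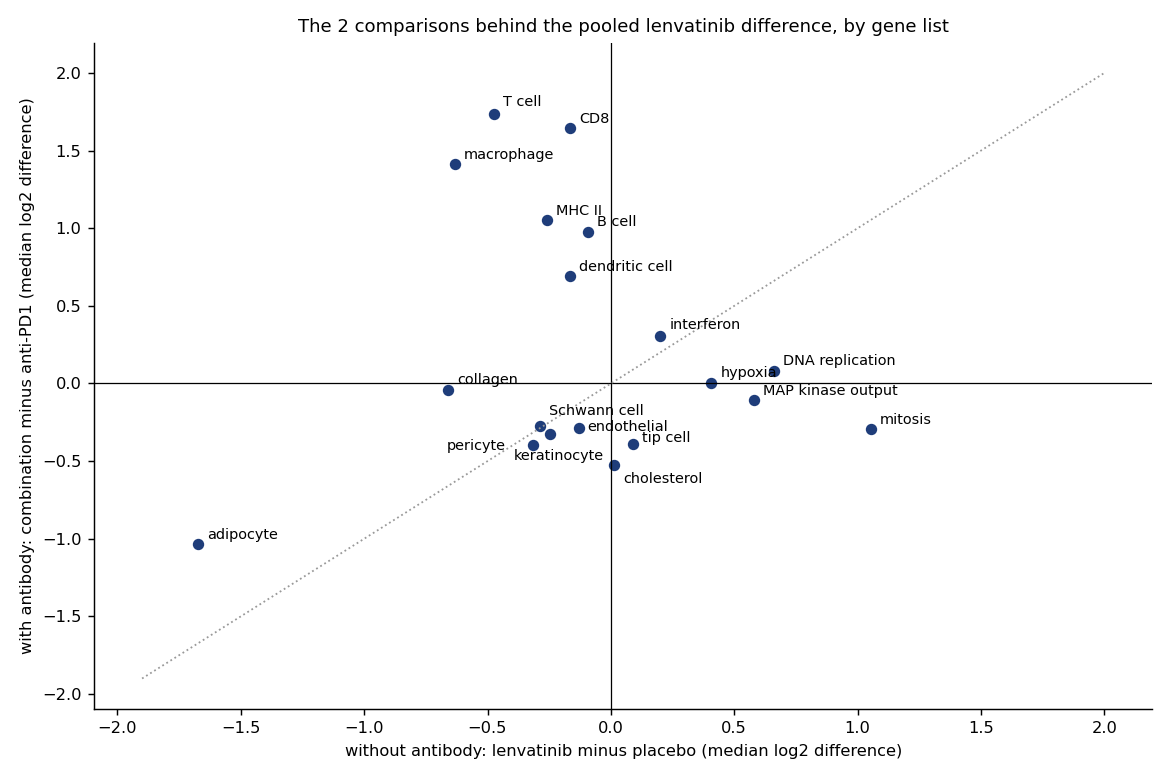
Each point is a gene list, placed by its median log2 difference for lenvatinib minus placebo (horizontal) and combination minus anti-PD1 (vertical); the dotted line marks equal values. The T cell, CD8, macrophage and MHC class II lists lie above 0 with the antibody and below 0 without it, mitosis lies at 1.05 and -0.29, and the adipocyte and pericyte lists lie below 0 in both.

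**Figure D5:**
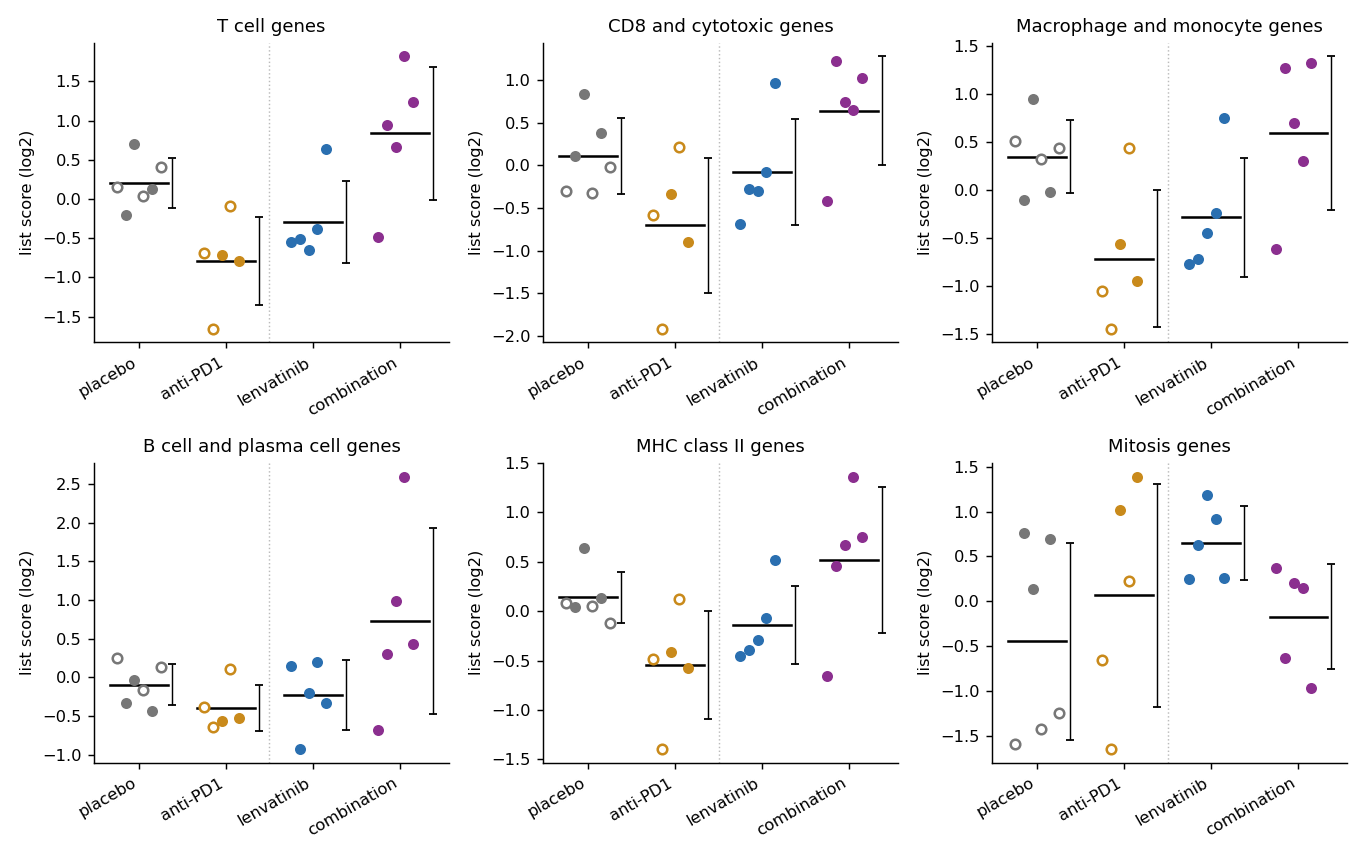
List scores (log2, mean of centred genes) of 5 immune lists and mitosis in each tumour by arm, with arm means (bars) and 1 SD (whiskers); open points are the adipocyte-rich tumours. For T cell genes, 4 of 5 combination tumours lie above 0.6 and all 5 anti-PD1 tumours below 0, and for mitosis 4 of the 6 open points lie below every treated tumour.

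The interferon and MHC class I lists had medians above 0 over all tumours and below 0 without the adipocyte-rich ones. Of 18 interferon response genes 14 lay above 0 and 5 had an unadjusted p under 0.05 (median 0.17), against 1.83% of all probe sets. In the smaller set 8 of 18 lay above 0 (median -0.02). Gbp3, an interferon-induced GTPase, stood at 0.58 ± 0.24 and then 0.15. All 10 MHC class I and peptide processing genes lay above 0 (median 0.19, and 0.09 without antiPD1 1), then 3 of 10 (median -0.08), with Psmb8, an immunoproteasome subunit, at 0.44 ± 0.18 and then 0.00. Cd274, which encodes the PD-1 ligand PD-L1, ranged from 8.92 to 10.29 in treated and from 6.62 to 9.80 in free tumours, each treated tumour above the free median of 8.60; its difference was 0.81 ± 0.28, then 0.27 ± 0.21. Pdcd1, which encodes PD-1, differed by 0.42 ± 0.36, then 0.13 ± 0.45. Nos2, the inducible nitric oxide synthase of activated macrophages, ranged from 5.60 to 9.12 in treated and from 3.84 to 8.50 in free tumours, and stood at 1.56 ± 0.54 and then 1.06 ± 0.50. Tnf stood at 0.51 ± 0.21 and then 0.26.

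Collagen genes had 12 of 15 below 0 (median -0.27), with a median of -0.66 in the arms without antibody and -0.04 in those with it. Col5a2, a fibrillar collagen chain, stood at -0.40 ± 0.19, and Mfap5, a microfibril protein, at -0.65 ± 0.31. In the smaller set the collagen median was 0.17 and both genes stood within 0.06 of 0. Bmper, a secreted BMP regulator, stood at -0.61 ± 0.22, split into -1.23 ± 0.31 without and 0.01 ± 0.32 with the antibody, and at -0.06 in the smaller set.

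Several hepatoma and metabolic genes lost or turned their difference in the smaller set. F2, the liver-made prothrombin, stood at 0.84 ± 0.42 and then -0.18, Hp, haptoglobin, at -1.36 ± 0.51 and then 0.10, and Foxa1, a liver and epithelial pioneer factor, at -0.90 ± 0.32 and then -0.30. Cyp2e1, a cytochrome of liver and fat, stood at -1.88 ± 0.73 and then 0.22. Cholesterol synthesis genes had 11 of 15 below 0 and 3 with an unadjusted p under 0.05 (median -0.07), against 4.06% of all probe sets. Without the antibody 7 of 15 lay below 0 (median 0.01), and with it 12 of 15 (median -0.53), so the lower values lay in the antibody-treated arms. In the smaller set 12 of 15 lay below 0 (median -0.10). Sc5d and Fdft1, both enzymes of the pathway, stood at -0.54 ± 0.18 and -0.51 ± 0.19, and then at -0.29 and -0.33. Mdm2, the p53-induced ubiquitin ligase, stood at 0.52 ± 0.19 and then 0.16.

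Wwtr1, which encodes the Hippo coactivator TAZ, had a pooled difference of -0.44 ± 0.19 over all and -0.62 ± 0.18 over the 15. In the smaller set 8 of 10 treated tumours lay below all 5 free ones. Over all 21 tumours, placebo values ranged from 6.56 to 7.76 and lenvatinib values from 6.72 to 7.85. Anti-PD1 values ranged from 6.95 to 8.35 and combination values from 6.45 to 7.26, so the difference lay in the antibody-treated arms. All 12 YAP and TAZ targets lay below 0 in the smaller set (median -0.26), against 4 of 12 over all 21 tumours (median 0.08). As with mitosis, the direction of the list turned with the free tumours counted. Its scores were 0.17, 0.22 and 0.36 in placebo 2, 3 and 5, against a lenvatinib arm mean of 0.27. In antiPD1 3 and 5 they were 0.30 and 0.75, against a combination arm mean of -0.26.

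The adipocyte list had the largest median difference of the 39 lists, and skin and nerve lists lay lower too. All 15 adipocyte genes lay below 0, and 13 had an unadjusted p under 0.05, against 4.06% of all probe sets. The list median was -1.29, with medians of -1.67 without and -1.03 with the antibody. Pparg, the master regulator of fat cells, ranged from 5.74 to 8.04 in treated and from 5.95 to 10.16 in free tumours (-1.23 ± 0.46). Pck1, a gluconeogenic and fat cell enzyme, stood at -1.21 ± 0.46 and Retn, the adipokine resistin, at -2.43 ± 0.97. Without the 6 tumours, 14 of 15 lay above 0 (median 0.26); as those tumours were chosen by this same score and all were free of lenvatinib, that choice fixes the loss of the difference, and nothing is read from it. Keratinocyte genes had 8 of 11 below 0 (median -0.27, then 0.04). Krt14, the basal keratin, stood at -1.53 ± 0.43 and then -0.61 ± 0.43, and its partner Krt5 at -0.85 ± 0.36 and then -0.20. All 5 Schwann cell genes lay below 0 (median -0.54, then 0.06), with Sox10, their lineage factor, at -0.73 ± 0.33 and then 0.16. The part of the make-up of the pieces in the other differences was not tested beyond the values given.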

How the data were processed

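The authors deposited log2 values; RMA and oligo are the tools named, without versions, per the submitters' processing notes; the genome build is not given in the sources used here. RMA quantile-normalizes arrays, so a shift common to most genes cannot show. Of 29129 rows, 6923 controls were left out, and no filter was applied to the 22206 probe sets tested, of which 19572 have 1 gene symbol. Precision is set by the number of arrays, there being no read depth. Genes were fitted with limma 3.58.1 (statmod 1.5.0, R 4.3.3), lmFit and eBayes on 4 arm means, two-sided, adjusted over all probe sets; it was tested on simulated data. The 39 lists held 563 genes, 522 of them measured, and are described without a test. Named genes rank in the lowest 8 by p on either side of the pooled difference, or the lowest 3 of a list, or are lenvatinib targets, Pdcd1 or Cd274, or lead the interaction (4 per side), without provisional names. Members and lists were chosen with earlier results of these data known. Alternatives covered the model, normalization, weights, covariates, tumours left out, thresholds and the mouse number as a block.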

Additional observations from a re-analysis of the deposited data

Results flagged for a closer look

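Within single arms of 5 or 6 mice, 408 sets of values (the named genes and 20 list scores) were checked for a tumour far from its neighbours by Dixon's gap test, which marks about 1 in 20 sets by chance, and 17 were marked. Among immune measures these were Cst7 in antiPD1 4 (8.55), Xcr1 in placebo 3 (6.06), Irf8 in combination 2 (7.80, the lowest of its arm), the T cell score in lenvatinib 5 (0.63), the MHC class II score in placebo 3 (0.64) and Nos2 in combination 1 (6.44, the lowest of its arm). Among stromal and epithelial measures they were Lama4 in combination 1 (5.70, the lowest), the collagen score in lenvatinib 5 (0.37), the keratinocyte score in lenvatinib 2 (1.21) and Reep6 in antiPD1 2 (8.25). Metabolic and proliferation genes gave Pgk1 in lenvatinib 1 (9.01), Rrm2 in antiPD1 2 (3.43, the lowest), and Fdft1 in antiPD1 2 (9.29) and in combination 5 (6.57, the lowest). The remaining ones were Rhof in combination 4 (8.21), Plekha6 in combination 1 (5.49) and Wasf1 in placebo 4 (3.18, the lowest). AntiPD1 2 is 1 of the 3 Afp-poor tumours.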

How the results depend on the processing

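The pooled lenvatinib difference gave 0 calls in each direction under all 36 alternatives, with smallest adjusted p from 0.19 to 1.00. Lenvatinib against placebo also gave 0 throughout. Combination against anti-PD1 gave 504 calls with array weights, 31 with the hybridization control signal as a covariate, 233 without the arrays with bright controls, 22 with muscle and adipocyte scores as covariates, and 0 to 338 with 1 mouse left out (87 without antiPD1 4, 338 without combination 1). The interaction gave 1691 calls with array weights and 0 to 320 with 1 mouse left out (81 without lenvatinib 5, 7 without antiPD1 4). The labels describe no pairing by mouse number. Values less their arm mean correlated between same-number tumours at a mean of 0.24 for lenvatinib and combination (other pairs -0.05). The mean was 0.23 for lenvatinib and anti-PD1 (-0.05) and 0.15 for anti-PD1 and combination (-0.03). With placebo the same-number means were -0.04, -0.003 and -0.21. The replicate block gave 0 calls in all 4 comparisons, and what the numbers share was not tested. Directions did not turn for 63 of 83 gene values and 8 of 20 lists. The adipocyte list and its members Pparg, Pck1 and Retn are among those that turned. Tumours were left out, or a covariate set, by that same adipocyte score. The loss of their difference was thus fixed in advance, and nothing is read from it.

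The turned values were, with muscle and adipocyte scores as covariates, Fgfr4 -0.42, Flt1 -0.033, Kdr 0.11, Flt4 -0.24, Etv4 -0.28 and Mki67 -0.22, and the list medians endothelial 0.0092, MAP kinase -0.22, hypoxia -0.083, collagen 0.10, mitosis -0.32, DNA replication -0.16, adipocyte 0.070 and keratinocyte 0.0062. Fgfr4 and Flt4 were -0.16 and -0.044 with array weights, -0.16 and -0.037 without the bright arrays, and -0.047 and -0.0081 without the 3 Afp-poor tumours, where mitosis was -0.033. Without the adipocyte-rich tumours, genes turned to: Fgfr2 0.17, Fgfr4 -0.75, Flt1 -0.15, Kdr 0.21, Flt4 -0.40, Fgf10 0.061, Tek 0.17, Dusp5 -0.16, Etv4 -0.55, Ero1a -0.067, Psmb8 -0.0026, Mcm5 -0.16, Mki67 -0.72, Hp 0.10, F2 -0.18, Cyp2e1 0.22, Pparg 0.17, Pck1 0.29, Retn 0.021 and Sox10 0.16. List medians turned to endothelial 0.039, MAP kinase -0.33, hypoxia -0.22, collagen 0.17, interferon -0.024, MHC class I -0.076, mitosis -0.66, DNA replication -0.43, adipocyte 0.26, keratinocyte 0.038 and Schwann 0.061. The tip cell median was 0.014 without lenvatinib 1, 0.013 without lenvatinib 2 and 0.0026 without combination 1. The 2 alternatives that leave out Afp-poor or adipocyte-rich tumours were chosen after seeing the data, and the cause was not tested. Leaving out the adipocyte-rich tumours leaves 5 free tumours, so errors there are wider for some genes. Signals near or below the negative controls, as for Nos3 and Sbspon and in some tumours for Pzp, Car6, Camk4, Fgf10, Tek and Foxa1, limit how low a value can read.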

Other observations

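The remaining gene lists are given by their medians over all 21 tumours and then over the 15 without the adipocyte-rich ones. Immune checkpoint genes had 10 of 11 above 0 (median 0.42), then 9 of 11 (0.20), and inflammatory cytokines and chemokines 12 of 16 (0.40), then 8 of 16 (-0.04). NK cell genes had 5 of 8 above 0 (0.16), then 7 of 8 (0.23). Neutrophil genes had 10 of 16 above 0 (0.16), then 6 of 16 (-0.21), and mast cell genes 3 of 8 (-0.04), then 7 of 8 (0.31). Lymphatic endothelial genes, which mark vessels that depend on the VEGF receptor encoded by Flt4, had 5 of 8 above 0 (0.14), then 6 of 8 (0.23). The highest lymphatic score was that of combination 4 (1.26), and the next that of lenvatinib 4 (0.70).

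Medians of the Wnt, liver protein and liver factor lists were lower in the smaller set. Wnt and beta-catenin targets had 8 of 10 above 0 (0.26), then 3 of 10 (-0.55), liver plasma proteins 13 of 22 (0.15), then 7 of 22 (-0.32), and liver transcription factors 5 of 12 (-0.07), then 3 of 12 (-0.37). Integrated stress response genes had 11 of 16 above 0 (0.18), then 4 of 16 (-0.27), p53 targets 8 of 10 (0.10), then 3 of 10 (-0.01), and acute phase genes 8 of 14 (0.01), then 9 of 14 (0.09). Elastic microfibril genes had 5 of 13 above 0 (-0.11), then 8 of 13 (0.11), TGF-beta genes 7 of 12 (0.03), then 4 of 12 (-0.06), skeletal muscle genes 2 of 18 (-0.27), then 11 of 18 (0.10), and erythroid genes 1 of 3 (-0.01), then 2 of 3 (0.00).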
